A study of Mus musculus with 6 samples.

Results

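A segment of mouse chromosome 1 was followed in sorted tumour cells of orthotopic pancreatic ductal adenocarcinoma (PDAC), that is, of tumours grown in the mouse pancreas. Its members are the genes of the deposited RNA table that start between 52.8 and 72.9 Mb of chromosome 1 (mm10) and average at least 50 normalised reads over the 6 libraries. Of 124 genes of the range with values, 43 lay below that mean and 5 were left out by name, which gave 76 members of 18180 genes with values. The range was chosen because the libraries titled KPSC stood above those titled KPC there, so every KPSC against KPC value of a member is given as a description, and no p-value of a member is used as support.

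The compared groups were 3 KPSC libraries and 3 KPC libraries, all of tumours in C57BL/6 mice collected 10 to 14 days after they were set up. The labels do not spell out the letters of these titles, the sort markers or whether libraries came from separate animals, so the spread between them may be technical. The genotype field gives wild type for KPSC and a knockout of Setd2, a histone H3 lysine methyltransferase, for KPC, which runs against the titles if their extra letter stands for that gene. Setd2 had 859, 908 and 1042 normalised reads in KPSC replicates 1, 2 and 3 and 1338, 1099 and 1046 in KPC replicates 1, 2 and 3 (log2 fold change -0.31, SE 0.12). Loss of a few exons can leave the total over the gene as it was, so these values do not settle the labels. The groups are called KPSC and KPC throughout, without a statement on which lacks Setd2.

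Genes of a chromosome segment need share no function. What they share is position, and with it the copy number of the DNA, the timing of its replication and the chromatin around it. The human counterparts of these genes lie together on the long arm of chromosome 2. They include the mitochondrial chaperonin pair Hspd1 and Hspe1, the apoptosis regulators Casp8 and Cflar, the T cell costimulation receptors Ctla4 and Icos, the metabolic enzyme Idh1 and the matrix protein Fn1. DNA of these cells was not analysed here.

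The libraries held 14662710 to 17746969 reads over the genes listed. All 10 ductal and tumour epithelium markers, such as Krt19 and Epcam, were detected in every library, and they held 0.645%, 0.719% and 0.803% of reads in KPSC replicates 1, 2 and 3, against 0.416% to 0.504% in the KPC libraries. RNA of other cells was present too. Genes of acinar digestive enzymes made up 18.6%, 9.59% and 0.396% of KPSC libraries 1, 2 and 3, against 0.963% to 7.30% of KPC libraries. Fibroblast markers made up 0.628%, 0.916% and 1.7% of KPSC libraries, against 1.01% to 1.22% of KPC libraries. Pan-leukocyte markers, such as Ptprc, made up 0.0709%, 0.0771% and 0.115% of KPSC libraries, against 0.132%, 0.149% and 0.143% of KPC libraries, so these groups did not overlap, and 3 of 8 markers were called lower. Endothelial and islet markers overlapped between the groups, at 0.0277% to 0.0451% and 0.00131% to 0.102% of KPSC libraries, against 0.0375% to 0.0463% and 0.0560% to 0.0671% of KPC libraries. KPSC replicate 3 stood apart from its group, since its log2 levels had a Pearson correlation of 0.877 and 0.892 with those of the other two, and these had one of 0.989 with each other. In bulk RNA, fewer cells of a type and less RNA per cell cannot be told apart.

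Most of the 76 members were modestly higher in KPSC. The median log2 fold change, KPSC over KPC on the log2(value + 1) scale, was 0.46, with quartiles of 0.24 and 0.65, and 69 members lay above 0 and 7 below. In 47 members all 3 KPSC values lay above all 3 KPC values, in 1 (Pard3b) all lay below, and in 28 the groups overlapped. Over the 12190 tested genes of the same minimum mean, the groups did not overlap in 39.5%, with KPSC above in 20.6% and KPSC below in 18.8% (17.6% and 17.2% over all 16737 genes tested). Only 5 members had a log2 fold change above 1, namely Myl1, Map2, Raph1, Spats2l and Pgap1, while 64 lay between 0 and 1. The typical spread between libraries of a group was smaller, with a median SD of 0.18 on the log2 scale.

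The test fitted across all genes (limma, Benjamini-Hochberg adjusted p under 0.05) called 28 members higher in KPSC and 0 lower, where it called 9.35% higher and 8.24% lower of the tested genes with a mean of at least 50, and 7.61% and 6.76% of all genes tested. As the range was chosen from this contrast, nothing is read from that count. At an unadjusted p under 0.05, 45 members were higher and 1 lower, Pard3b, where 2398 of all 16737 genes tested were lower. On reads recovered from the values, edgeR and DESeq2 also called 0 members lower. They called 17.3% and 19.6% of the genes they tested in either direction. The count of higher calls was 18 without KPSC replicate 1 and 15 without KPC replicate 3, where 4.25% and 4.37% of all genes tested were called higher. Without KPSC replicate 3, 2 members were called lower, Icos and Igfbp5, and 18.5% of all genes tested were called in either direction. The members with all KPSC values below KPC then numbered 7 (2 without KPC replicate 1 or without KPC replicate 3). Leaving out a library can only keep or raise that count. In the authors' deposited table, 33 members had an adjusted p under 0.05 with a higher KPSC mean and 0 with a lower one. In either direction, 16.2% of all genes with values had an adjusted p under 0.05 there, and the members were chosen on the same contrast. Scaling to library size alone put the median of all expressed genes at -0.18, and 29.9% of all calls were then higher in KPSC, against 53.0% as deposited. The members' median was then 0.27, with 59 above 0, 23 with all KPSC values above KPC and 5 called higher, beside 2.27% of all genes tested.

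**Figure D1:**
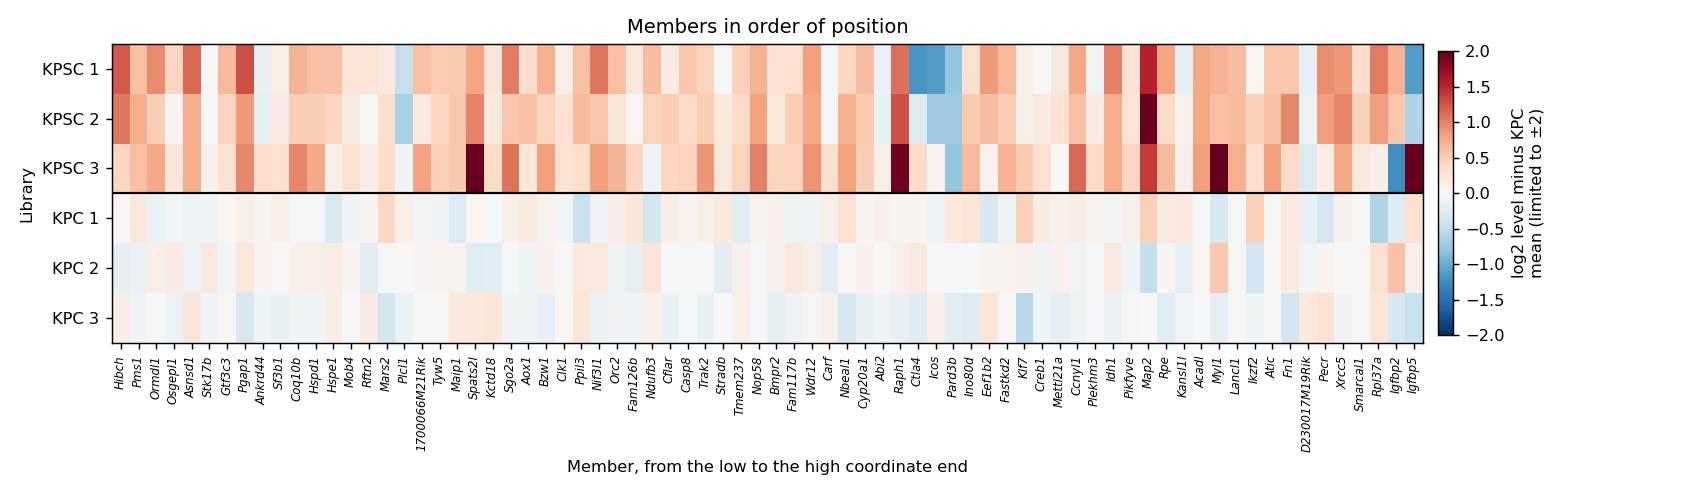
Level of members in each library, as log2(value + 1) minus the gene's mean in KPC, with members from left to right in order of position and libraries from top to bottom. Red fields fill most of the 3 KPSC rows, the KPC rows are pale, and the blue fields in KPSC replicates 1 and 2 belong to Ctla4, Icos, Pard3b, Plcl1 and Igfbp5.

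The shift was present in each KPSC library. The median over members of the level relative to the gene's KPC mean was 0.52, 0.47 and 0.44 in KPSC replicates 1, 2 and 3, against 0.05, 0.03 and -0.07 in KPC replicates 1, 2 and 3, so the groups did not overlap. On chromosomes 2 to 19, with 11099 genes of the same minimum mean, these medians, pooled over the chromosomes, lay between -0.01 and 0.01 in all 6 libraries. Single chromosomes stood off 0 in both directions. The median log2 fold change was -0.36 on chromosome 18 and -0.24 on chromosomes 3 and 5, and 0.16 on chromosome 14 and 0.13 on chromosomes 16 and 19. Within a group, which the choice of the range did not use, the median member moved less than between the groups. The median member of KPSC replicates 1, 2 and 3 deviated by -0.04, -0.05 and 0.08 from the other libraries of its group, and that of KPC replicates 1, 2 and 3 by 0.07, 0.05 and -0.11. The median gene of chromosomes 2 to 19 deviated less in each library. Its values were 0.00, -0.01 and 0.02 in KPSC replicates 1, 2 and 3 and -0.01, 0.02 and -0.01 in KPC replicates 1, 2 and 3. The median gene of the rest of chromosome 1 deviated with the same sign as the median member in each library. It stood at -0.02, -0.03 and 0.07 in KPSC replicates 1, 2 and 3 and at 0.02, 0.02 and -0.03 in KPC replicates 1, 2 and 3. Single members spread more widely, with quartiles of -0.12 and 0.27 in KPSC replicate 3. In reads, the members together took 0.823%, 1.07% and 1.06% of KPSC libraries, against 0.79%, 0.805% and 0.631% of KPC libraries. Fn1 alone made up 0.330%, 0.527% and 0.412% of KPSC reads and 0.369%, 0.349% and 0.223% of KPC reads. Without it the shares were 0.494%, 0.545% and 0.651% in KPSC, against 0.421%, 0.456% and 0.408% in KPC.

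**Figure D2:**
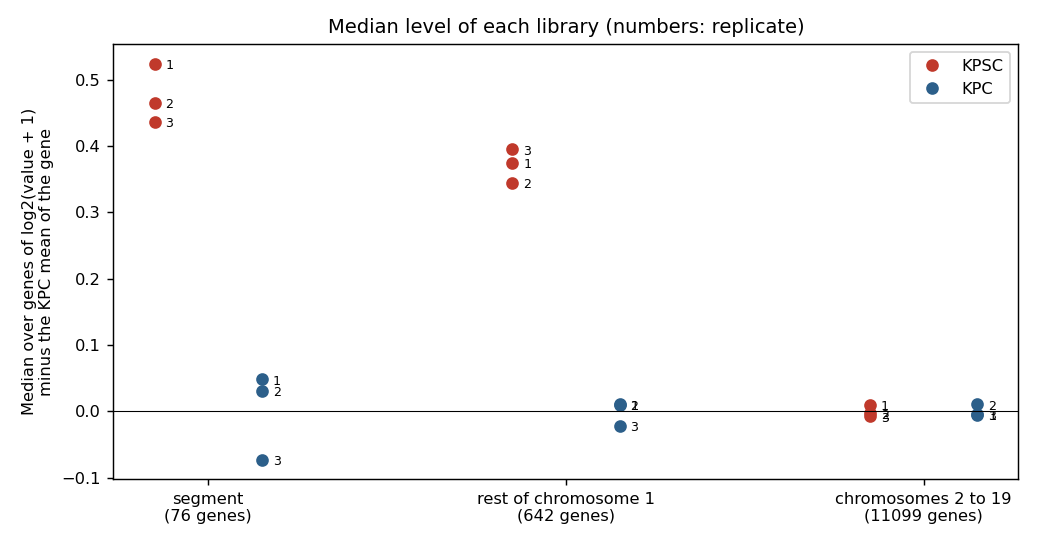
Median level of each library relative to the KPC mean of each gene, for the 76 members, for the other genes of chromosome 1 and for chromosomes 2 to 19, with KPSC in red and KPC in blue. The KPSC libraries sit at 0.44 to 0.52 for the members and near 0 for chromosomes 2 to 19 pooled.

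The segment was not set off from the rest of chromosome 1 by a step. The other 642 tested genes of that chromosome with a mean of at least 50 had a median log2 fold change of 0.38 (quartiles 0.03 and 0.59), beside 0.46 for the members and 0.00 for chromosomes 2 to 19 pooled. The share called higher was 36.8% of members and 36.6% of the other genes of chromosome 1. All KPSC values lay above KPC in 61.8% of members and 56.2% of those genes. The share above 0 was 90.8% of members, 77.3% of the other genes of chromosome 1 and 50.3% of genes on chromosomes 2 to 19. At the low end, 0 members were called lower, beside 5.30% of the other genes of the chromosome, and 1.32% of members had all KPSC values below KPC, beside 10.4%. In the 20 Mb before the range 75 genes had a median of 0.37, and in the 20 Mb after it 108 genes had a median of 0.33. Of 34 windows of 5 Mb along chromosome 1 that held at least 5 genes, 33 had a median above 0, from -0.08 to 0.65. These differences carry no test, since the range was chosen on the same contrast.

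Genes above 0 lay on both sides of each edge of the range. Just before it, the nearest genes were Nemp2 (log2 fold change 0.41, SE 0.14), Mfsd6 (0.54, SE 0.13) and Inpp1 (0.39, SE 0.10). The first members were Hibch (0.91, SE 0.22), Pms1 (0.64, SE 0.19), Ormdl1 (0.74, SE 0.15), Osgepl1 (0.24, SE 0.18) and Asnsd1 (0.88, SE 0.18). At the other edge, the last members were Xrcc5 (0.86, SE 0.10), Smarcal1 (0.35, SE 0.11), Rpl37a (0.65, SE 0.32), Igfbp2 (0.01, SE 0.51) and Igfbp5 (0.37, SE 0.91). Beyond it came Tns1 (-0.16, SE 0.15), the neutrophil chemokine receptor Cxcr2 (-1.34, SE 0.23), Arpc2 (0.48, SE 0.11), Aamp (0.43, SE 0.16) and Pnkd (0.20, SE 0.13). Cxcr2 averaged 259 ± 58.8 normalised reads in KPSC and 660.1 ± 166 in KPC (SD, n = 3 each), and the part of the pan-leukocyte difference given above in that value was not tested.

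Windows of 2 Mb that held at least 5 members had medians of 0.64 (9 members from Hibch to Ankrd44), 0.28 (8 from Sf3b1 to Plcl1), 0.49 (16 from 1700066M21Rik to Casp8), 0.44 (14 from Trak2 to Raph1), 0.37 (8 from Ino80d to Plekhm3), 0.60 (5 from Idh1 to Kansl1l) and 0.64 (7 from Atic to Rpl37a). The single stretch in which every member lay below 0 was that of Ctla4, Icos and Pard3b. The longest gaps without a member were 2.49 Mb between Lancl1 and Ikzf2 and 1.87 Mb between Ikzf2 and Atic. The median difference in log2 fold change between next neighbours was 0.39 over 75 steps, beside an SD of 0.40 over all members other than Myl1. Members on the plus strand (42 genes) had a median of 0.45 and those on the minus strand (34 genes) of 0.46.

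**Figure D3:**
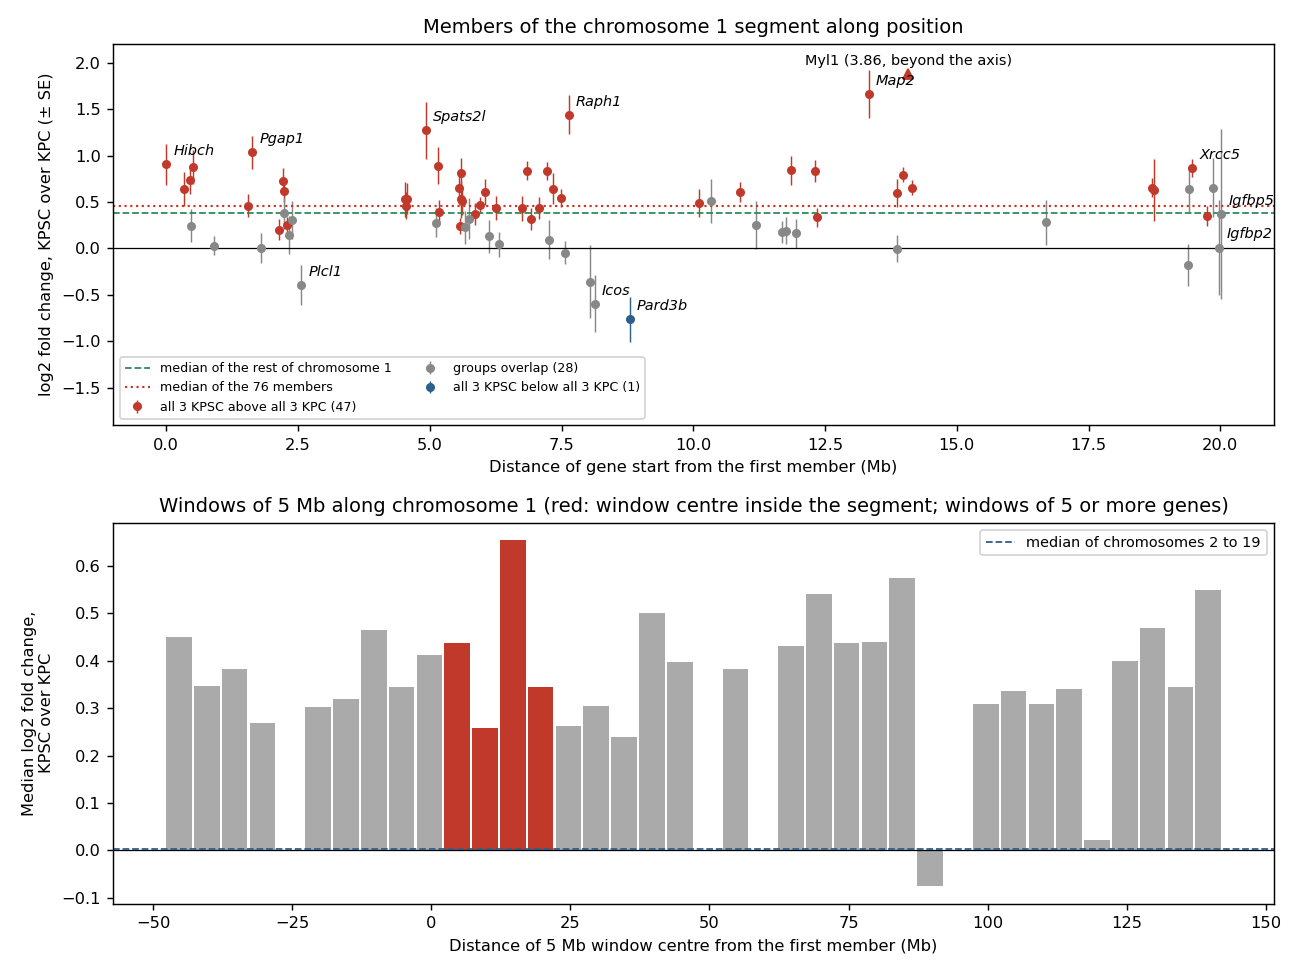
Upper panel, log2 fold change of each member (points, ± SE) against the distance of its start from that of Hibch, with red for members whose KPSC values all lie above KPC (Myl1, at 3.86, is drawn as an arrowhead). Lower panel, medians of 5 Mb windows along all of chromosome 1, of which 33 of 34 lie above 0. Windows are red where their centre lies between the starts of the first and last member, and grey elsewhere. The windows at the edges hold both members and other genes.

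Mitochondrial proteins were represented by 10 members, all above 0 (median 0.57), and 6 of them had KPSC values that all lay above KPC. Hspd1, the chaperonin that folds proteins in the mitochondrial matrix, had 6553, 6077 and 7280.2 normalised reads in KPSC and 4219, 4664 and 4067 in KPC (log2 fold change 0.62, SE 0.12). Its co-chaperonin Hspe1 had 3522, 3149.7 and 2534 in KPSC and 1890.2, 2599 and 2606 in KPC (0.38, SE 0.17). The groups thus lay apart for Hspd1 and overlapped for Hspe1. Acadl, which starts the oxidation of long-chain fatty acids, was the most even member of the list. It had 2235, 2242 and 2322 reads in KPSC, against 1281, 1345 and 1294 in KPC (0.79, SE 0.08). Hibch, an enzyme of valine breakdown, had 408, 365 and 237 in KPSC, against 180.1, 153 and 193 in KPC (0.91, SE 0.22), with KPSC replicate 3 nearest to KPC. Fastkd2, a regulator of mitochondrial RNA, stood at 0.61 and Coq10b, a coenzyme Q-binding protein, at 0.72, while the groups overlapped for Osgepl1, Mars2 and Ndufb3. The fit called 5 of the 10 higher, and 3, 3 and 2 without KPSC replicate 1, KPC replicate 1 and KPC replicate 3. The lists were drawn up with earlier results of these data known. Calls and counts of non-overlapping groups within a list, here and below, are therefore a description and do not grade the lists. The share called higher was 36.8% of all members and 36.6% of the other genes of chromosome 1. The share with all KPSC values above KPC was 61.8% and 56.2%, respectively.

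Enzymes of cytosolic and peroxisomal metabolism were represented by 8 members, all above 0 (median 0.65), of which 6 were called. Idh1, the cytosolic NADP-dependent isocitrate dehydrogenase, had 3091, 2564 and 2577 reads in KPSC, against 1481, 1744 and 1394 in KPC (0.83, SE 0.12). Atic, which catalyses the last steps of purine synthesis, had 2029.8, 2088 and 2461 in KPSC, against 1364, 1422 and 1378 in KPC (0.65, SE 0.10). In both genes the groups lay well apart. Rpe, an epimerase of the pentose phosphate pathway, stood at 0.60 (SE 0.15), the cytochrome P450 family member Cyp20a1 at 0.55 (SE 0.10), the glutathione-binding protein Lancl1 at 0.65 (SE 0.08), Asnsd1 at 0.88 and the aldehyde oxidase Aox1 at 0.39 (SE 0.13). For the peroxisomal enoyl-CoA reductase Pecr (0.64, SE 0.25) the groups overlapped, with 298, 278 and 174 reads in KPSC and 122, 164 and 189.8 in KPC.

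RNA processing genes were 7 in number, and in all 7 every KPSC value lay above every KPC value (median 0.46), though by unequal amounts. That was so in 61.8% of all members and 56.2% of the other genes of chromosome 1. Nop58, a core protein of the small nucleolar particles that guide rRNA methylation, had 2366, 2579 and 2967 reads in KPSC, against 1547, 1435 and 1425 in KPC (0.84, SE 0.11). The ribosome assembly factor Wdr12 had 781, 756 and 825 in KPSC, against 421, 479 and 429 in KPC (0.83, SE 0.10). Both lay far above the spliceosome subunit Sf3b1, where the gap between groups was narrow. It had 4557, 4702 and 5233 in KPSC, against 4530.0, 4326 and 3764 in KPC (0.20, SE 0.11). Clk1, a kinase of splicing factors (0.24), the spliceosomal isomerase Ppil3 (0.53), the tRNA-modifying enzyme Tyw5 (0.46) and Gtf3c3, a subunit of an RNA polymerase III factor (0.46), completed the list. Of the 7, the fit called 3 higher.

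Genes of DNA replication, repair and chromosome segregation lay above 0 in 5 of 5 members (median 0.64). Xrcc5, a subunit of the Ku complex that binds broken DNA ends, had 964, 1039 and 899.9 reads in KPSC, against 564, 525 and 504 in KPC (0.86, SE 0.10). Sgo2a, which protects cohesion at centromeres, had 210.1, 149 and 218 in KPSC, against 111, 99.2 and 96.0 in KPC (0.89, SE 0.20). The mismatch repair gene Pms1 stood at 0.64, the origin recognition subunit Orc2 at 0.51 and the fork-remodelling helicase Smarcal1 at 0.35. The fit called 2 of them, Xrcc5 and Sgo2a, and 1 without KPSC replicate 1 or without any 1 of the KPC libraries.

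Per kilobase of gene length, the most abundant members were Rpl37a, Fn1, Eef1b2, Hspd1 and Hspe1, and most of them were uneven between libraries. Rpl37a, a protein of the large ribosomal subunit, averaged 9558 normalised reads per kilobase in KPSC and 6091 in KPC. Its reads were 16893, 14687 and 8851 in KPSC and 5459.6, 10327 and 9977 in KPC (0.65, SE 0.32), so the groups overlapped. Eef1b2, an exchange factor of translation elongation, had 13170.4, 11118 and 7623 in KPSC and 5784, 7574 and 8799 in KPC (0.51, SE 0.24). In both genes KPSC replicate 3 was the lowest of its group and KPC replicate 1 the lowest of the other, and both have processed copies elsewhere in the genome that could share their reads. The third translation gene, Bzw1, a regulator of initiation, lay clearly apart with 5600.5, 4660.2 and 6048 in KPSC, against 3608, 3665 and 3077 in KPC (0.65, SE 0.13). It was the 1 of 3 called, with none called without KPSC replicate 1 or without KPC replicate 3 and 3 without KPSC replicate 3.

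Fn1, the fibronectin of the extracellular matrix, was by far the member with most reads. It had 66755, 89532 and 60503 in KPSC, against 52852, 52033 and 35301 in KPC (0.63, SE 0.33), with the groups apart by less than their own ranges. Fibroblasts also make it, and the share of the fibroblast marker list overlapped between groups, as given above; its part in the Fn1 value was not tested. Igfbp2 and Igfbp5, which bind insulin-like growth factors, lie next to each other at the end of the range and stood at opposite ends of their group in KPSC replicate 3. Igfbp5 had 145, 204 and 2269 reads in KPSC and 394, 344 and 231 in KPC. Igfbp2 had 228, 207 and 59.6 in KPSC and 117, 212 and 111 in KPC. The log2 fold changes, 0.37 (SE 0.91) and 0.01 (SE 0.51), rest on that library, and without it that of Igfbp5 was -0.87 and that of Igfbp2 0.63.

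Apoptosis regulators on the segment were Casp8, the initiator caspase of death receptors, its inhibitor Cflar and the kinase Stk17b. Casp8 had 1703, 1516 and 1602 reads in KPSC, against 1206, 1134 and 1138 in KPC (0.47, SE 0.09). Cflar had 1608, 2036 and 1919 in KPSC, against 1578, 1438 and 1283 in KPC (0.37, SE 0.12). Both lay apart between the groups, Cflar only narrowly, with its lowest KPSC value at 1608 and its highest KPC value at 1578. Stk17b overlapped, with 884, 887 and 937 in KPSC and 833, 999 and 831 in KPC (0.03, SE 0.10), and its sign changed under library size scaling. Casp8 was the 1 of 3 called.

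Cytoskeleton, trafficking and polarity genes held the widest spread, from the highest members other than Myl1 to the lowest. Raph1, an adaptor of actin assembly at the leading edge of moving cells, had 773, 875 and 1395 reads in KPSC, against 373, 389 and 323 in KPC (1.44, SE 0.21). Map2, a microtubule-binding protein best known from neurons, had 535, 745 and 484 in KPSC, against 253, 131 and 182 in KPC (1.66, SE 0.26). At the other end, the polarity gene Pard3b was low throughout, with 38.6, 40.2 and 38.0 in KPSC, against 77.3, 67.3 and 57.1 in KPC (-0.76, SE 0.24). Of the 9 genes, 7 lay above 0 (median 0.25) and 3 were called higher, Raph1, Map2 and Trak2, an adaptor of mitochondrial transport (0.61, SE 0.14). Abi2 (-0.04), Plekhm3 (0.16), Mob4 (0.25) and Pikfyve (0.34) lay nearer to 0.

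Pgap1 and Spats2l were the remaining members above 1, and Ccnyl1, a cyclin-like protein, was the tenth from the top. Ccnyl1 had 535, 477 and 693 reads in KPSC, against 348, 302 and 291 in KPC (0.84, SE 0.16). Pgap1, which remodels the lipid anchor of surface proteins, had 5186, 3808 and 4106 reads in KPSC, against 2279.5, 2478 and 1665 in KPC (1.04, SE 0.18). Spats2l had 341, 389.9 and 802 in KPSC, against 201, 165 and 226 in KPC (1.27, SE 0.31). Every KPSC library lay above KPC for both, and Spats2l and Raph1 were highest in KPSC replicate 3. Ormdl1, a regulator of sphingolipid synthesis, stood at 0.74, and Plcl1, an inactive relative of phospholipase C, at -0.39 (SE 0.22) with overlapping groups. Ankrd44, in no role list, was level at 0.00 (SE 0.16), with 372, 358 and 526 reads in KPSC and 425, 427 and 383 in KPC. Of the 3 lipid and membrane genes (median 0.74), Pgap1 and Ormdl1 were called, and 1 was called without KPSC replicate 1, KPC replicate 1 or KPC replicate 3.

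Transcription factors and chromatin genes had the median nearest 0 of all lists, 0.18 over 5 members, and -0.02 when values were scaled to library size alone. Creb1, a factor that answers cyclic AMP, had 824, 944 and 1037 reads in KPSC and 921, 781 and 775 in KPC (0.18, SE 0.12). Klf7 stood at 0.26 (SE 0.26), Carf at 0.09 (SE 0.21) and Kansl1l at -0.00 (SE 0.15), and the groups overlapped for all of them. Ino80d, a subunit of a chromatin remodeller, was the exception with 1090.4, 1269 and 1386 in KPSC, against 1068, 876 and 742 in KPC (0.49, SE 0.15). None was called by limma, and 1 was called without KPC replicate 1. Of the membrane receptors and kinases, Bmpr2, a receptor for bone morphogenetic proteins, stood at 0.32 (SE 0.11) and Stradb at 0.13 (SE 0.17), and neither was called.

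**Figure D4:**
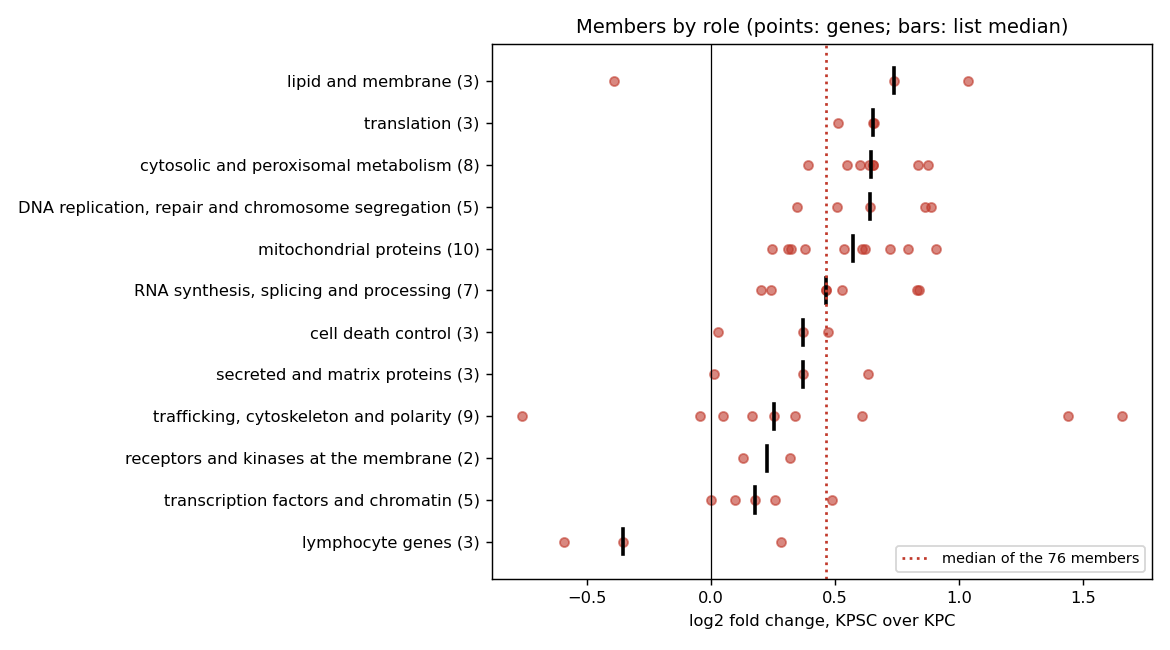
Log2 fold change of the members by role (points, with the median of each list as a bar and the number of members in brackets). All members of the mitochondrial, metabolic, RNA, DNA and translation lists lie above 0, whereas the lymphocyte, trafficking and lipid lists reach below it. The transcription factor and chromatin list does so only through Kansl1l (-0.0008).

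Lymphocyte genes had the lowest median of the lists, -0.36 over 3 members, but 0.05 without KPSC replicate 1 and 0.26 in the 3 libraries with at most 5% of acinar reads. Icos, a costimulatory receptor of activated T cells, had 58.0, 76.0 and 133 reads in KPSC and 116, 127 and 138 in KPC (-0.59, SE 0.31). Ctla4, an inhibitory receptor of T cells, had 35.0, 65.9 and 105 in KPSC and 84.6, 91.7 and 66.9 in KPC (-0.36, SE 0.39). In both genes KPSC replicates 1 and 2 were the lowest of all libraries and KPSC replicate 3 reached the level of KPC. Ikzf2, a factor of regulatory T cells, stood at 0.28 (SE 0.25). The 14 markers of T, NK and B cells with values ran alongside. They held 0.00462%, 0.00751% and 0.0122% of reads in KPSC replicates 1, 2 and 3, against 0.0175%, 0.0152% and 0.0200% in KPC, and 7 were called lower. The part of these and of the pan-leukocyte markers, which also held a lower share of reads in KPSC, in the values of Icos and Ctla4 was not tested. Without the lymphocyte genes, the median of the remaining 73 members was 0.47.

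Myl1, a light chain of fast skeletal muscle myosin, is a member through a single library. It had 4.83, 4.47 and 4412 reads in KPSC replicates 1, 2 and 3 and 1.82, 4.21 and 2.16 in KPC (3.86, SE 2.33), and without KPSC replicate 3 its log2 fold change was 0.65. A list of 12 skeletal muscle genes, chosen after this value was seen, held 0.367% of reads in KPSC replicate 3, against 0.00119% and 0.00196% in KPSC replicates 1 and 2 and 0.00282% to 0.00291% in KPC. Of these 12 genes, 6, 5 and 1 were at 0 in KPSC replicates 1, 2 and 3 and 4, 4 and 6 in KPC replicates 1, 2 and 3. The median of the other 75 members was 0.46, and that of all members without KPSC replicate 3 was 0.47.

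**Figure D5:**
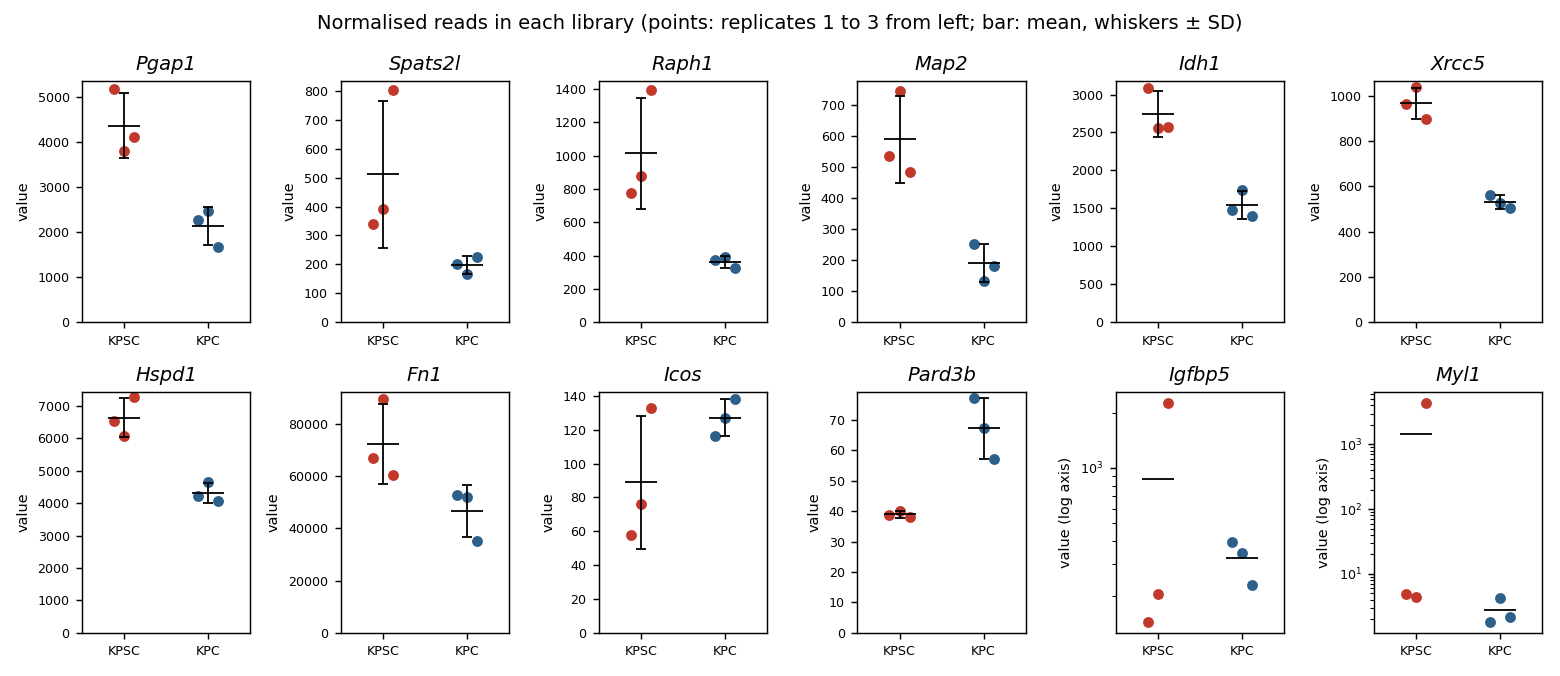
Normalised reads of 12 members in each library (points) with the group mean (bar) and SD (whiskers), KPSC left of KPC in each panel, with log axes and no whiskers for Igfbp5 and Myl1. Pgap1, Raph1, Map2, Idh1, Xrcc5 and Hspd1 lie apart between groups, whereas Igfbp5 and Myl1 are set by KPSC replicate 3.

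Several members lie head to head. In 8 pairs, members on opposite strands had starts within 1000 bases of each other, and such neighbours can share promoter elements. The windows of 4 pairs are shown because their differences in log2 fold change run from 0.09 (Pms1 and Ormdl1) through 0.24 (Hspd1 and Hspe1) and 0.50 (Idh1 and Pikfyve) to 0.74 (Wdr12 and Carf), the widest of the 8 pairs. Each window runs from 250 bases before to 50 bases after the start of the named gene (RefSeq, GRCm38.p6). The windows of Ormdl1 and Pikfyve hold the start of the partner, and those of Hspe1 and Carf do not. Capitals mark, on either strand, CCAAT (the element of factor NF-Y), GGGCGG (of Sp1), CCGGAAG (of ETS factors) and the heat shock element (TTC, any 2 bases, GAA, any 2 bases, TTC). In Hspe1 the matches to the heat shock element on the 2 strands overlap each other and those of CCGGAAG, and in Ormdl1 and Hspe1 the CCGGAAG matches of the 2 strands overlap.
Ormdl1 (Pms1 on the opposite strand), chr1:53296845-53297144, plus strand: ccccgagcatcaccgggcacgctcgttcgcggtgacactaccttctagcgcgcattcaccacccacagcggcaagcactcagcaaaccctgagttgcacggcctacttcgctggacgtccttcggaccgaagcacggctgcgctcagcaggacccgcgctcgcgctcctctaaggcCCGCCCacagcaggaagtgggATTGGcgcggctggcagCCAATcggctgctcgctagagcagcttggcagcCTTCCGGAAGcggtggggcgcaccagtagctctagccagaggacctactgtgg
Hspe1 (Hspd1 on the opposite strand), chr1:55087898-55088197, plus strand: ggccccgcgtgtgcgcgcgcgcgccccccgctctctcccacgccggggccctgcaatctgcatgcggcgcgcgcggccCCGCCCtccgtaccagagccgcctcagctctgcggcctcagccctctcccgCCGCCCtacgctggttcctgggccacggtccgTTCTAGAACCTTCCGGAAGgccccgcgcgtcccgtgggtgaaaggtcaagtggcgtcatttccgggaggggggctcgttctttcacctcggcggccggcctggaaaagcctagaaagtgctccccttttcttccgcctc
Pikfyve (Idh1 on the opposite strand), chr1:65186435-65186734, plus strand: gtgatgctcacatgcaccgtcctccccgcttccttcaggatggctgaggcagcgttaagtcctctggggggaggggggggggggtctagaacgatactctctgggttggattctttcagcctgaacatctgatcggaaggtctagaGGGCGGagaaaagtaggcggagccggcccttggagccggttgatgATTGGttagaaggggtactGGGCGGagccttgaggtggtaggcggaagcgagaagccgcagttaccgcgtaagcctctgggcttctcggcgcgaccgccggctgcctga
Carf (Wdr12 on the opposite strand), chr1:60097997-60098296, plus strand: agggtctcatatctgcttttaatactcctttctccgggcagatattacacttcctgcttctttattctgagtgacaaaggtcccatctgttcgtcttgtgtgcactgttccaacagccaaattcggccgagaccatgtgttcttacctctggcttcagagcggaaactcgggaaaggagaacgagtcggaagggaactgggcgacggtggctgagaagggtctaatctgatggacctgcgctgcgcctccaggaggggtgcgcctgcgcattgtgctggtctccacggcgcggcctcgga

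The members of a pair did not always move alike. Starts of Pms1 and Ormdl1 lie 77 bases apart, and their log2 fold changes were 0.64 (SE 0.19) and 0.74 (SE 0.15). Hspd1 and Hspe1, whose start regions overlap by 111 bases, stood at 0.62 and 0.38. Fam126b and Ndufb3 (61 bases apart) stood at 0.23 and 0.32. Tyw5 and Maip1, whose start regions overlap with starts 773 bases from each other, stood at 0.46 and 0.54. Idh1 and Pikfyve, by contrast, stood at 0.83 (SE 0.12) and 0.34 (SE 0.10) across 183 bases, and Trak2 and Stradb at 0.61 and 0.13 across 92 bases. Ppil3 and Nif3l1, which overlap with starts 335 bases from each other, stood at 0.53 and 0.82. The most unlike were Wdr12 (0.83, SE 0.10) and Carf (0.09, SE 0.21), which also overlap, with starts 398 bases from each other. The median difference was 0.26 over the 8 pairs.

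Promoter windows were matched for 66 of the 76 members. A few matched windows lie far from the start of the gene in the deposited table, such as Spats2l (71409 bases), Kctd18 (48872) and Ctla4 (22025). Those of Asnsd1, Rftn2, Clk1, Abi2, Icos, Ino80d, Ikzf2 and Fn1 were among the windows not matched. The matched windows had a median of 22.5 CpG sites and 62.2% GC, beside 7 sites and 52.7% over 27025 promoters taken as 1 window a gene. Those promoters were not limited by level, whereas members average at least 50 normalised reads. No set of promoters of genes at that level was compared. Whether these differences, and those of the motifs below, are particular to the segment was therefore not tested. GGGCGG was found in 68.2% of the members' windows and in 35.9% of all windows, CCAAT in 42.4% and 37.9%, CCGGAAG in 16.7% and 9.12%, and the heat shock element in 3.03% (Hspe1 and Kctd18) and 0.529%. The median log2 fold change was 0.46 for members with GGGCGG and 0.51 for those without, and 0.57 and 0.45 for CCAAT. A match is a description of the letters and says nothing of binding. Across the members other than Myl1, the log2 fold change correlated with log2 mean level at a Pearson r of 0.37 and a Spearman rho of 0.38 (n = 75), with transcript length at 0.03 and -0.09, and with promoter CpG count at 0.13 and 0.07 (n = 65). These genes come from the same 6 libraries and are not independent.

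The minimum mean set the membership at the low end. Just inside it were Pard3b, with a mean of 53.1 over the 6 libraries, D230017M19Rik (58.7, log2 fold change -0.18), Ctla4 (74.9), Rftn2 (85.5, 0.14) and Carf (98.7). Just outside were Cd28 (49.5, -0.64), another costimulation receptor of T cells, the membrane protein Adam23 (49.2, -0.40), Mreg (42.7, 0.36), Ino80dos (37.3, 0.26) and Gm20257 (35.8, 0.02). Of the 43 genes of the range below that mean, 35 were tested, with a median of 0.21, 20 above 0 and 4 with all KPSC values above KPC. Among them, the growth factor receptor Erbb4 (-0.55, SE 0.95, mean 2.60) and the urea cycle enzyme Cps1 (-0.40, SE 0.73, mean 3.85) were too low to place.

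Exons of 37 members overlap those of another annotated gene in GENCODE M21, 34 of them on the opposite strand, among them Hspd1 with Hspe1, Tyw5 with Maip1, Wdr12 with Carf and Rpe with Kansl1l. Whether counting used strand is not given in the sources used here, so reads of such neighbours cannot be told apart.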

How the data were processed

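Bulk RNA of sorted tumour cells was sequenced in 3 KPSC and 3 KPC libraries, grouped by their titles. Per the submitters' processing notes, the build was mm10 and CASAVA 1.7 was used; aligner, counter and annotation: not given in the sources used here. The deposited table holds a normalised signal per gene and library, and multiplying a library by its size factor (0.828 to 1.19) turned 100% of values into whole reads, within 0.01. Its p-values and adjusted p-values are the authors' and are named as such. Of 25450 rows, 7265 had no value and 5 had damaged symbols, which left 18180; 18176 gene IDs matched GENCODE M21 (GRCm38).

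Values were tested as log2(value + 1) by limma 3.58.1 in R 4.3.3, with the trend option of eBayes. Of all genes, 16737 reached 1 in 3 or more libraries and entered the fit, and p-values were adjusted over these by Benjamini-Hochberg. Fold changes of low genes come out too small because of the added 1. The fit was tested on simulated data with known changes. edgeR 4.0.16 and DESeq2 1.42.0 on recovered reads, other scalings, pseudocounts, filters, a replicate block and leaving out each library were alternatives. Counting error limits members of low mean most. The range, the members, the role lists and the rule for named genes were chosen with earlier results of these data known. Named were the 10 highest and 10 lowest members, members of role lists, genes at the edges and at the minimum mean, the most abundant per kilobase and pairs of opposite strands; a few of these genes are not reported here. Every pair of replicates differed by more than sampling noise (lowest chi-square per degree of freedom 38.7). Python 3.11.15 with pandas 2.3.3 served for all other steps.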

Additional observations from a re-analysis of the deposited data

How the results depend on the processing

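The median log2 fold change of the members stayed between 0.43 and 0.47 under every other setting tried, apart from scaling to library size only (0.27, with the median of all expressed genes at -0.18) and a minimum mean of 200 (0.51, 58 genes). Under library size scaling 5 members were called higher, 23 had all KPSC values above KPC and 2 all below, and 29.9% of all calls were higher, against 53.0% as deposited. Leaving out each library gave medians of 0.45 to 0.47, with 15 to 32 members called higher and 0 to 2 lower. In these fits 4.25% to 9.05% of all genes tested were called higher. All KPSC values lay above KPC in 49 to 53 members and below in 1 to 7. With 1 library fewer, these counts can only stay or rise from 47 and 1. Of the 28 members called, 13 were called in each of these 6 fits, and 66 of 76 members kept their sign. Of the log2 fold changes of single members under all settings, 1216 moved by less than 1 SD and 75 by more. Of the latter, 43 came under library size scaling, 31 in the libraries of at most 5% acinar reads and 1 with DESeq2. Leaving out 1 of 3 libraries cannot shift a group mean by 1 SD. The fits without trend, with a replicate block or without a filter keep the fold changes. These settings therefore say nothing on stability by that measure. No called member changed sign. limma without the trend called 1 lower. With a minimum mean of 200, 0 had all KPSC values below KPC. When libraries above 5% acinar reads were dropped, a setting added after the data were seen, 17 were called higher and 1 lower, with 5 all below and a median of 0.43; KPSC replicate 3 was then the lone library of its group, assumed to vary like the others. The replicate numbers did not pair the libraries (same-number correlations of -0.12, -0.31 and -0.42). With a replicate block 12 members were called higher, beside 3.39% of all genes tested. Members below about 100 reads have standard errors of 0.2 or more, which limits what could be detected there.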
